A study of Mus musculus with 12 samples.

Results

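L1Md_A is a subfamily of LINE-1 (L1), the retrotransposon that copies itself into new genomic sites through an RNA. Its copies were taken as every repeat row of the count table whose repeat name was exactly L1Md_A, which gave 16802 of 5138235 repeat copies. Of these, 4219 had at least 1 count in the 12 libraries and 12583 had none. The table names each copy by the subfamily and a running number, such as L1Md_A_9392, and gives no position, length or strand, so the copies are described by their counts alone. Testes of C57BL/6 mice at postnatal day 16 were compared between Mael+/- animals, heterozygous for the loss of Maelstrom (Mael), and Mael-/- animals, in which both alleles are lost. From each of 3 replicate extracts per genotype, all treated with cycloheximide to hold ribosomes in place, total RNA and ribosome footprints were sequenced.

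A full-length L1 carries a promoter and the open reading frames of ORF1p, an RNA-binding protein that coats L1 RNA, and ORF2p, the endonuclease and reverse transcriptase. L1Md_A, L1Md_T and L1Md_Gf are the young mouse subfamilies that still hold copies able to move, while most copies of any subfamily are truncated. In the male germ line, Piwi-interacting RNAs (piRNAs) guide the methylation of L1 promoters and the destruction of L1 RNA, and Mael is needed in this pathway. Ribosome footprints are fragments of RNA that a ribosome shielded from nuclease, and they are taken to report which RNAs were being translated. Because copies of a young subfamily are nearly alike, a short read often matches several of them. The study describes reassigning such reads with Telescope for other libraries. How they were assigned to copies is not stated for those used here, and a footprint is shorter than an RNA read.

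The total of gene counts was 13697267 to 27462358 in the RNA libraries and 7609932 to 13233565 in the footprint libraries. Mael itself had 3800 to 5045 counts in Mael+/- RNA and 0 to 2 in Mael-/- RNA. Of 30 names on a fixed list of genes that silence or restrict L1, 27 were tested and Mael was the only gene called, lower in both assays. Since 0.0751% of all genes tested were called lower in RNA and 0.0222% in footprints, the count says nothing about the other 26. The Mael+/- extract 1 stood apart. Its summed level of 14 pachytene spermatocyte markers was 1044 CPM (counts scaled to the gene total of the library) in RNA, against 382 and 414 in the other Mael+/- extracts and 318 to 357 in the Mael-/- extracts, and its footprints showed 1210 CPM against 325 to 451 in the other 5 extracts. The part of cell makeup in the L1Md_A results was not tested, and in whole testes more cells of a type and more RNA per cell cannot be told apart. Markers of Sertoli cells, spermatogonia and Leydig cells were present in all 12 libraries.

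Summed over its copies, L1Md_A was higher in Mael-/- testes in both assays. The RNA sum was 40.3, 24.5 and 30.4 CPM in the Mael+/- libraries, from 929, 670 and 805 counts, and 297, 230 and 181 CPM in the Mael-/- libraries, from 4082, 4642 and 4952 counts. The footprint sum was 25.1, 20.4 and 16.3 CPM in Mael+/-, from 237, 158 and 167 counts, and 101, 108 and 85.5 CPM in Mael-/-, from 1337, 1086 and 721 counts. In neither assay did the genotypes overlap. Group means were 31.7 ± 7.96 and 236 ± 58.5 CPM in RNA and 20.6 ± 4.42 and 98.4 ± 11.7 CPM in footprints (SD, n = 3). When subfamily sums were tested beside genes with edgeR's quasi-likelihood test, the log2 fold change was 2.90 in RNA (SE 0.22, 7.44-fold, adjusted p = 0.000656) and 2.26 in footprints (SE 0.16, 4.78-fold, adjusted p = 0.000104). Of all genes and sums tested, 0.171% were called higher in RNA and 0.0756% in footprints. Without the Mael+/- extract 1 the log2 fold changes were 3.10 and 2.43.

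**Figure D1:**
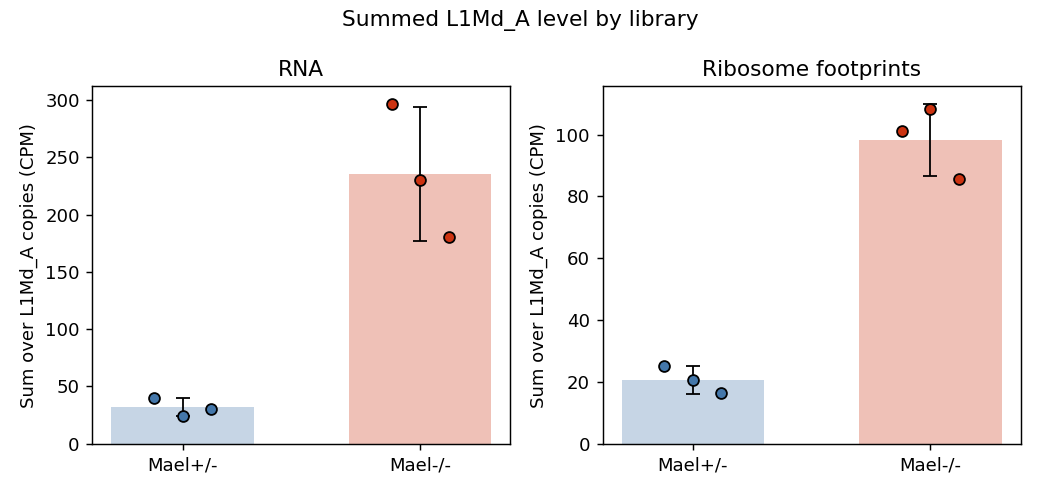
Sum over all L1Md_A copies in CPM for each library (points), with the group mean (bar) and SD (error bar, n = 3), in RNA (left) and ribosome footprints (right); the vertical scales differ. Every Mael-/- library lies above every Mael+/- library, at 181 to 297 against 24.5 to 40.3 CPM in RNA and 85.5 to 108 against 16.3 to 25.1 CPM in footprints.

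The sums were spread over many copies. RNA counts fell on 3579 copies (21.3% of all), footprint counts on 1644 (9.78%), and both kinds on 1004. In Mael-/- RNA the copy with the most counts held 1.0% of all L1Md_A counts, the highest 10 held 5.90%, the highest 100 held 27.4%, and 339 copies made up 50% of the total. Of the 3227 copies with counts in this group, 1357 had a single count and 305 had 10 or more. Thus, as counted, no copy or small set of copies held most of the sum. How reads that match several copies were assigned is not stated, so these counts cannot show how many copies were their source. In Mael-/- footprints, the highest copy held 2.13%, the highest 10 held 10.6% and 232 copies made up 50%. In Mael+/- testes the highest 10 copies held 14.0% of RNA counts and 14.8% of footprint counts, at a depth of 2404 and 562 counts over the group.

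**Figure D2:**
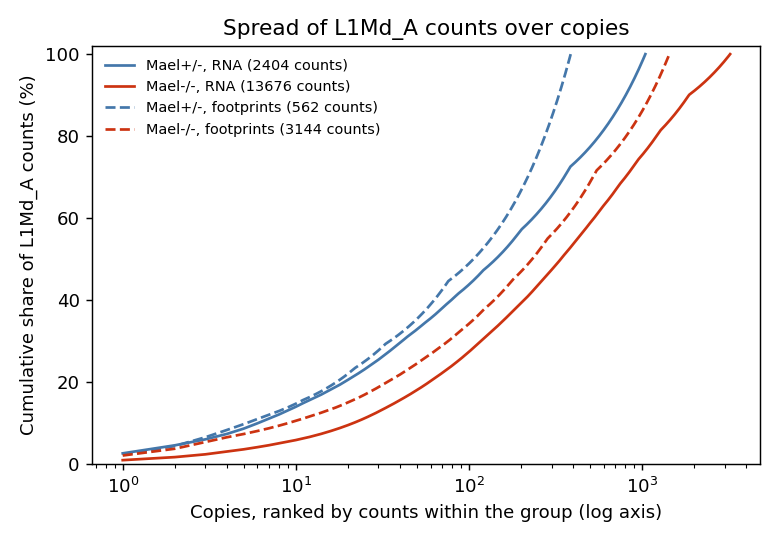
Cumulative share of L1Md_A counts (vertical axis, %) over copies ranked by counts within each group (horizontal log axis), for Mael+/- (blue) and Mael-/- (red) RNA (solid) and footprints (dashed). The red solid line rises slowest, with 339 copies needed for 50% of 13676 counts; the groups differ in depth, which sets where each line ends.

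More copies had counts in Mael-/- testes. Each Mael+/- RNA library had counts on 536, 368 and 439 copies, and each Mael-/- RNA library on 1770, 1828 and 1868. When every RNA library was thinned to 670 L1Md_A counts, the smallest total, the expected numbers were 423, 368 and 386 copies in Mael+/- and 513, 498 and 498 in Mael-/-. The genotypes still did not overlap at equal counts, by a smaller margin. For footprints, unthinned numbers were 132 to 185 copies in Mael+/- and 499 to 807 in Mael-/-, and at 158 counts they were 126 to 135 and 137 to 139. At equal depth the Mael-/- RNA counts were thus spread over more copies. In footprints the genotypes lay as close as 135 and 137 copies. No sampling error was computed, so the footprint values do not show whether the spread differed.

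Copies were next summed by class of their counts over both genotypes, where the high classes fill mainly through Mael-/- counts. Among copies with 1 to 4 RNA counts over the 6 libraries (2755 copies), the summed mean level was 11.6 CPM in Mael+/- and 70.9 CPM in Mael-/-, 6.13-fold. It was 10.3-fold for the 460 copies with 5 to 9 counts, 7.54-fold for the 230 copies with 10 to 19 and 7.61-fold for the 134 copies with 20 or more. In footprints the same classes gave 4.85-fold (1491 copies), 3.92-fold (109 copies), 5.56-fold (32 copies) and 5.39-fold (12 copies). Leaving out the 10 highest copies of the assay, the ratio of means was 7.45-fold in RNA and 4.71-fold in footprints, beside 7.44-fold and 4.77-fold with them. Copies that were abundant in Mael+/- testes differed less. The 37 copies with at least 10 Mael+/- RNA counts, which held 28.5% of Mael+/- and 4.73% of Mael-/- RNA counts, summed to 8.997 ± 1.746 CPM in Mael+/- and 10.96 ± 2.003 CPM in Mael-/- (SD, n = 3), a ratio of 1.22. The 4 copies with at least 10 Mael+/- footprint counts summed to 1.646 ± 0.756 and 1.238 ± 0.385 CPM, a ratio of 0.75. Copies taken for high Mael+/- counts tend to low ratios, so these values are given without a test. Of the copies with RNA counts, 3076 had a higher mean in Mael-/- and 503 a lower one. For footprints these numbers were 1371 and 273. Most of these copies had too few counts to be read singly.

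Copies deep enough to compare library by library were those with at least 10 counts in the assay. The counts were taken over both genotypes, and copies reached 10 mainly through Mael-/- libraries. In RNA, 305 copies had 10 or more counts within the Mael-/- group and 37 within the Mael+/- group. A high share of copies higher in Mael-/- is therefore partly built into this choice. Of the 364 copies chosen in RNA, every Mael-/- library was above every Mael+/- library for 271 (74.5%), the reverse held for 6, and the genotypes overlapped for 87. Among all genes and repeat copies with at least 10 RNA counts, 7.08% were higher without overlap. In footprints, 31 of 44 L1Md_A copies (70.5%) were higher without overlap and 1 was lower, against 6.68% higher among all genes and repeat copies of that depth. L1Md_T gave 522 of 678 copies (77%) in RNA and 84 of 120 (70%) in footprints. L1Md_Gf gave 35 of 44 and 6 of 11. At a minimum of 5 footprint counts, the L1Md_A share was 42.5% of 153 copies.

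**Figure D3:**
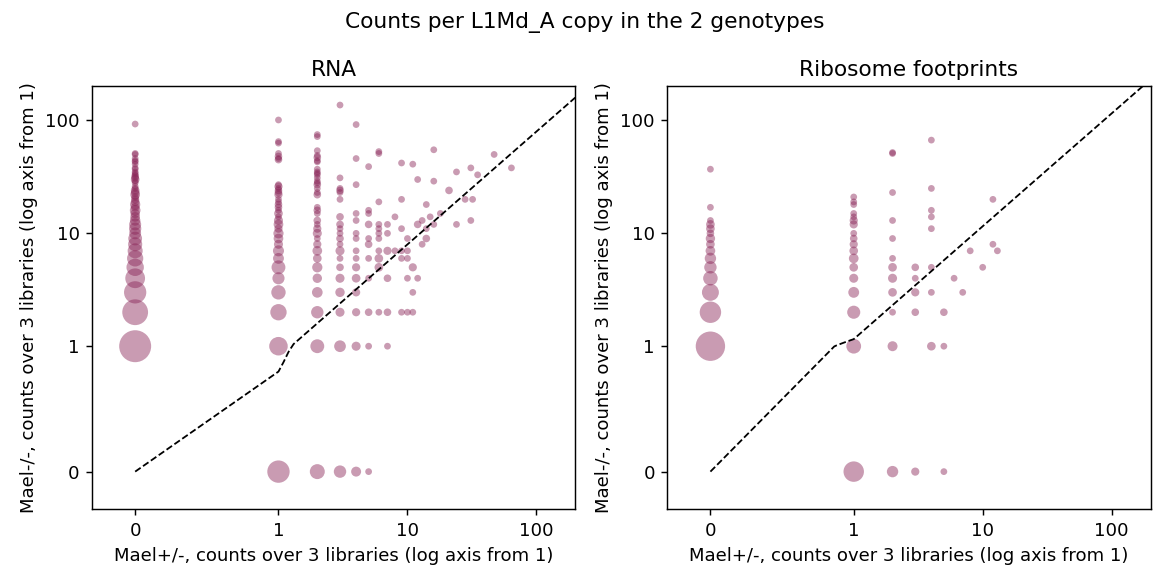
Counts of each L1Md_A copy summed over the 3 Mael+/- libraries (horizontal) and the 3 Mael-/- libraries (vertical), in RNA (left) and footprints (right), on axes that are logarithmic from 1 and include 0. Larger dots hold more copies, and the dashed line marks equal CPM; most copies lie above it, many of them in the column with 0 Mael+/- counts, while the copies with 10 or more Mael+/- counts lie closer to the line.

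Few copies had enough counts for a test of their own. The filter on low counts kept 37 copies in RNA, 3 in footprints and 13 for the change of footprints beyond RNA. A copy could pass it through the Mael-/- libraries alone, so those kept were bound to include copies that differ. In RNA, 33 of the 37 were called by edgeR at an adjusted p under 0.05, all of them higher in Mael-/-. Of all genes and repeat copies tested, 0.682% were called higher. In footprints the 3 tested copies were called higher, against 0.168% of all rows. The number called in RNA was 62 without Mael+/- library 1, 20 without Mael-/- library 1 and 18 without Mael-/- library 2. In footprints it was 1 without Mael+/- library 1 or Mael-/- library 3, in the latter case none of the 3 copies, and 0 without any of the other 4 libraries. Of the 3 footprint calls, only that of L1Md_A_11715 withstood a left-out library, and only Mael+/- library 1. L1Md_T had 54 of 66 tested copies called higher in RNA and 10 of 11 in footprints. For L1Md_Gf these were 3 of 7 and 0 of 1.

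The 33 copies called in RNA had 29 to 137 counts over the 3 Mael-/- libraries and at most 16 over the 3 Mael+/- libraries. In 9 of them the Mael+/- libraries held no count. They carried 13.4% of Mael-/- L1Md_A RNA counts and 3.82% of the footprint counts, and 15 of them had no footprint count in any library. The copies that were not tested singly made up 85.5% of Mael-/- RNA counts, and their sum was 28.6 ± 7.36 CPM in Mael+/- and 203 ± 54.2 CPM in Mael-/- (SD, n = 3), a ratio of 7.08.

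The copy with the highest RNA level, L1Md_A_16001, had 2, 0 and 1 counts in Mael+/- and 40, 42 and 55 in Mael-/-. All 6 of its footprint libraries held 0. Its Mael-/- RNA level was 57.2 times that of Mael+/- (95% exact interval 19.2 to 281, counting error only), with an adjusted p of 0.00026 by edgeR. L1Md_A_13909 had no Mael+/- RNA count and 25, 40 and 28 Mael-/- counts, at least 38.9-fold higher when set against 3 counts over the group. It too had no footprint count. L1Md_A_11679 had 0, 1 and 0 counts against 14, 44 and 43, 127 times higher (interval 22.2 to 5050), with footprint counts in Mael+/- library 1 (1 count) and Mael-/- library 1 (3 counts) only. L1Md_A_13837 had 3, 1 and 0 counts against 23, 34 and 35, 28.8 times higher (interval 10.9 to 108), and no footprint count. Leaving out each RNA library in turn moved the log2 fold change both ways. It ranged from 5.12 to 6.58 for L1Md_A_16001 (5.69 with all libraries) and from 6.00 to 8.17 for L1Md_A_11679 (6.46 with all). For L1Md_A_13837 it ranged from 4.17 to 6.00 (4.73 with all). Each of these copies stayed called, with adjusted p of at most 0.00946 by edgeR. These 4 copies led the RNA list, and 3 of them left no footprint. Since the lengths of the copies are not known, their order compares counts and not levels per base.

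Further copies of the 10 highest in RNA showed the same contrast. L1Md_A_15561 had 0, 2 and 0 counts in Mael+/- and 26, 21 and 28 in Mael-/-. L1Md_A_1546 had 2, 0 and 0 against 17, 29 and 26. L1Md_A_2665 had 1, 0 and 0 against 16, 30 and 19. These 3 copies were called higher, with adjusted p of 0.0021, 0.0021 and 0.002 by edgeR, and had at most 3 footprint counts each. Resting on 1 or 2 Mael+/- counts, their ratios of 47 (95% exact interval 12.6 to 395), 45.1 (12 to 380) and 81.5 (14.1 to 3267) were loosely fixed. Leaving out each RNA library in turn, the log2 fold change of L1Md_A_15561 ranged from 4.83 to 7.83 (5.35 with all libraries). For L1Md_A_1546 it ranged from 4.70 to 7.79 (5.25 with all) and for L1Md_A_2665 from 5.41 to 7.66 (5.90 with all). The highest adjusted p by edgeR were 0.0155, 0.0151 and 0.0236, respectively. L1Md_A_16181 was present in both genotypes, with 5, 3 and 8 counts against 11, 20 and 24, and rose by a log2 fold change of 2.07 (SE 0.43, adjusted p = 0.046), the smallest among the called copies. This call was lost with DESeq2 (adjusted p = 0.077) and on leaving out any of the 6 libraries but Mael+/- library 1 (adjusted p from 0.058 to 0.258, log2 fold change from 1.75 to 2.44). L1Md_A_16181 had no footprint count.

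Several abundant copies did not follow the sum. L1Md_A_6751 had RNA counts of 19, 14 and 14 in Mael+/- and 18, 14 and 18 in Mael-/-, with a log2 fold change of 0.46 (SE 0.39, adjusted p = 0.91). It was the only copy among the 10 highest of both assays, with footprint counts of 5, 2 and 5 against 9, 8 and 3. L1Md_A_8530 had 15, 21 and 28 RNA counts against 10, 11 and 17, a log2 fold change of -0.41 (SE 0.34, adjusted p = 0.91). L1Md_A_16105 had 14, 5 and 2 RNA counts against 6, 5 and 13, and footprint counts of 3, 2 and 8 against 3, 3 and 1. L1Md_A_2464, too low for a test, had 1, 15 and 12 RNA counts against 3, 8 and 9, and footprint counts of 8, 0 and 4 against 3, 3 and 2. In these 4 copies the genotypes overlapped in both assays.

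Such copies were a recurrent part of the Mael+/- signal. Copies with at least 5 RNA counts in a single Mael+/- library (17 to 35 copies, depending on the library) held 13.6% to 23.6% of L1Md_A RNA counts in the other 2 Mael+/- libraries, which played no part in the choice. They held 2.33% to 4.32% of the counts in the Mael-/- libraries. Copies chosen in Mael+/- library 1 summed to 5.78 to 6.76 CPM in the other Mael+/- libraries and 7.69 to 12.4 CPM in the Mael-/- libraries. For the choice in library 3 these ranges were 5.34 to 6.59 and 7.78 to 11.1 CPM, again higher in Mael-/- without overlap. For the choice in library 2 they were 5.46 to 5.70 and 5.35 to 7.06 CPM and overlapped. By comparison, the sum over all copies was 24.5 to 40.3 and 181 to 297 CPM. Across the 16802 copies, Pearson's r of CPM was 0.58 to 0.65 between Mael+/- RNA libraries, 0.79 to 0.82 between Mael-/- RNA libraries and 0.23 to 0.31 between the genotypes. These correlations describe copies that share libraries and are mostly at 0.

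Several copies with the most footprints had little or no RNA. The copy with the most footprint counts, L1Md_A_9392, had 1, 0 and 3 in Mael+/- and 27, 24 and 16 in Mael-/-, a log2 fold change of 3.75 (SE 0.56, adjusted p = 0.024). Its RNA counts were 0 in Mael+/- and 0, 2 and 2 in Mael-/-. Relative to the gene totals, its footprint level in Mael-/- testes was 32.5 times its RNA level (95% exact interval 12.1 to 123, counting error only), whereas the summed footprint level of L1Md_A was below its RNA level in every extract. Gene totals cover whole mRNAs for RNA and coding sequence for footprints. All such ratios therefore compare copies and sums with each other and are not absolute. L1Md_A_11715 had 2, 0 and 0 footprint counts against 17, 20 and 14, a log2 fold change of 4.26 (SE 0.71, adjusted p = 0.049). Its RNA counts were 0 in Mael+/- and 1, 3 and 0 in Mael-/-, and its footprint level was 24.7 times its RNA level (interval 9.08 to 94.1). L1Md_A_9392 lost its call on leaving out any single footprint library (adjusted p from 0.055 to 0.150 by edgeR, log2 fold change from 3.31 to 4.91). L1Md_A_11715 kept its call without Mael+/- library 1 (adjusted p = 0.031 by edgeR, log2 fold change 7.03). Without any other footprint library its call was lost (adjusted p from 0.127 to 0.264, log2 fold change from 3.67 to 4.42). Both copies stood high among footprints and near 0 in RNA in all 3 Mael-/- extracts.

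L1Md_A_16522, the third copy called in footprints, had no Mael+/- count in either assay. Its Mael-/- libraries held 15, 11 and 11 footprint counts, at least 10.7-fold higher (adjusted p = 0.037), and 7, 6 and 6 RNA counts, at least 7.94-fold higher, each set against 3 counts over the group. Its footprint call was lost on leaving out any single footprint library (adjusted p from 0.056 to 0.215 by edgeR). L1Md_A_7790 had 1, 0 and 1 footprint counts against 26, 19 and 7, and RNA counts of 0 against 14, 17 and 20, which were called (at least 21.3-fold, adjusted p = 0.0029). These 2 copies were high in both assays, with footprint levels 3.77 (interval 2.11 to 6.94) and 1.98 (interval 1.32 to 2.97) times their RNA levels in Mael-/- testes. L1Md_A_7754 had 12, 5 and 6 footprint counts in Mael-/- and no RNA count in any of the 6 libraries, so that its footprint level was at least 14.9-fold higher than 3 RNA counts would give. L1Md_A_4837 had 9, 9 and 7 footprint counts in Mael-/- and 2 RNA counts in all, both in Mael-/- library 3. L1Md_A_6965 had 9, 10 and 2 footprint counts against 2, 1 and 2 RNA counts.

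**Figure D4:**
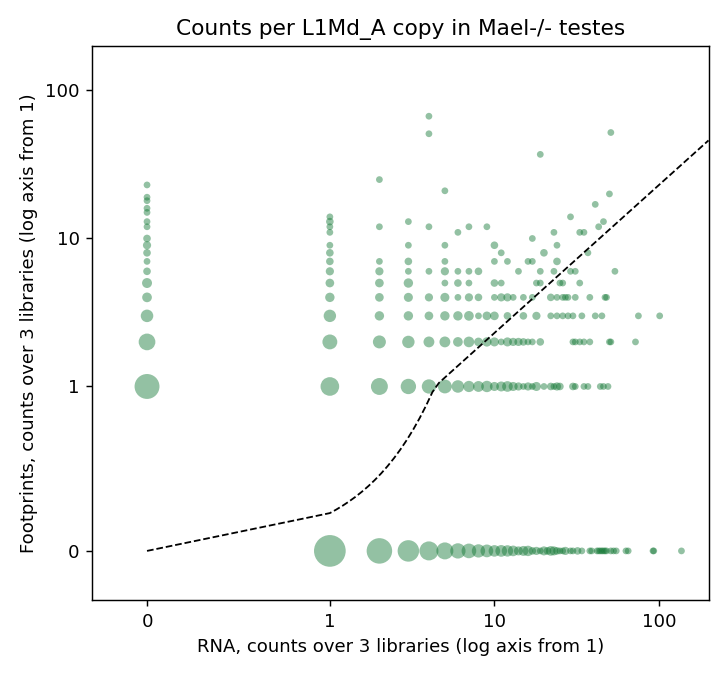
Counts of each L1Md_A copy over the 3 Mael-/- RNA libraries (horizontal) and the 3 Mael-/- footprint libraries (vertical), on axes that are logarithmic from 1 and include 0. Larger dots hold more copies and the dashed line marks the ratio of the 2 sums (3144 to 13676); the copies with the most RNA lie at 0 or few footprints, and several of the copies with the most footprints lie at 0 to 5 RNA counts.

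Over the whole set the 2 assays shared their copies in part. Of the 364 copies with at least 10 RNA counts and the 44 with at least 10 footprint counts, 18 were in both lists, 4.95% of the RNA list and 40.9% of the footprint list. The RNA list was 364 of all 16802 copies, a far smaller share than 40.9%. No footprint was counted on 148 of the 364 copies, nor on 49 of the 134 copies with at least 20 RNA counts. Conversely, 9 of the 44 copies had no RNA count in any of the 6 RNA libraries. Most copies had no RNA count (21.3% of all 16802 had one) and most had no footprint count (9.78% had one). Copies without any RNA count thus received less than their share, 844 of 3144 Mael-/- footprint counts (26.8%). Copies without any footprint count likewise received 7370 of 13676 Mael-/- RNA counts (53.9%). Part of such shares comes with low depth: within an assay, 15.9% to 16.6% of a Mael-/- RNA library's counts and 34.5% to 41.3% of a Mael-/- footprint library's counts fell on copies that were empty in the other 2 libraries of the group.

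Copies chosen in a single library and followed in the others gave a comparison in which the choice and the readout came from different libraries. Copies with at least 5 counts in 1 Mael-/- RNA library (192 to 236 copies) held 33.7% to 38.7% of L1Md_A counts in the other 2 Mael-/- RNA libraries and 11.4% to 18.7% in the Mael-/- footprint libraries. Copies with at least 5 counts in 1 Mael-/- footprint library (12 to 34 copies) held 9.50% to 16.4% of counts in the other 2 Mael-/- footprint libraries and 0.833% to 3.41% in the Mael-/- RNA libraries. In both directions the ranges of the assays did not overlap. Pearson's r over the 16802 copies was 0.62 to 0.70 between Mael-/- footprint libraries, 0.79 to 0.82 between Mael-/- RNA libraries and 0.19 to 0.24 between an RNA and a footprint library. L1Md_T and L1Md_Gf showed like values: 25.03% and 21.9% of their Mael-/- footprint counts fell on copies without RNA counts, and 39.4% and 45.5% of their copies with at least 10 RNA counts had no footprint. The part that the assignment of reads to copies had in this partial separation was not tested.

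**Figure D5:**
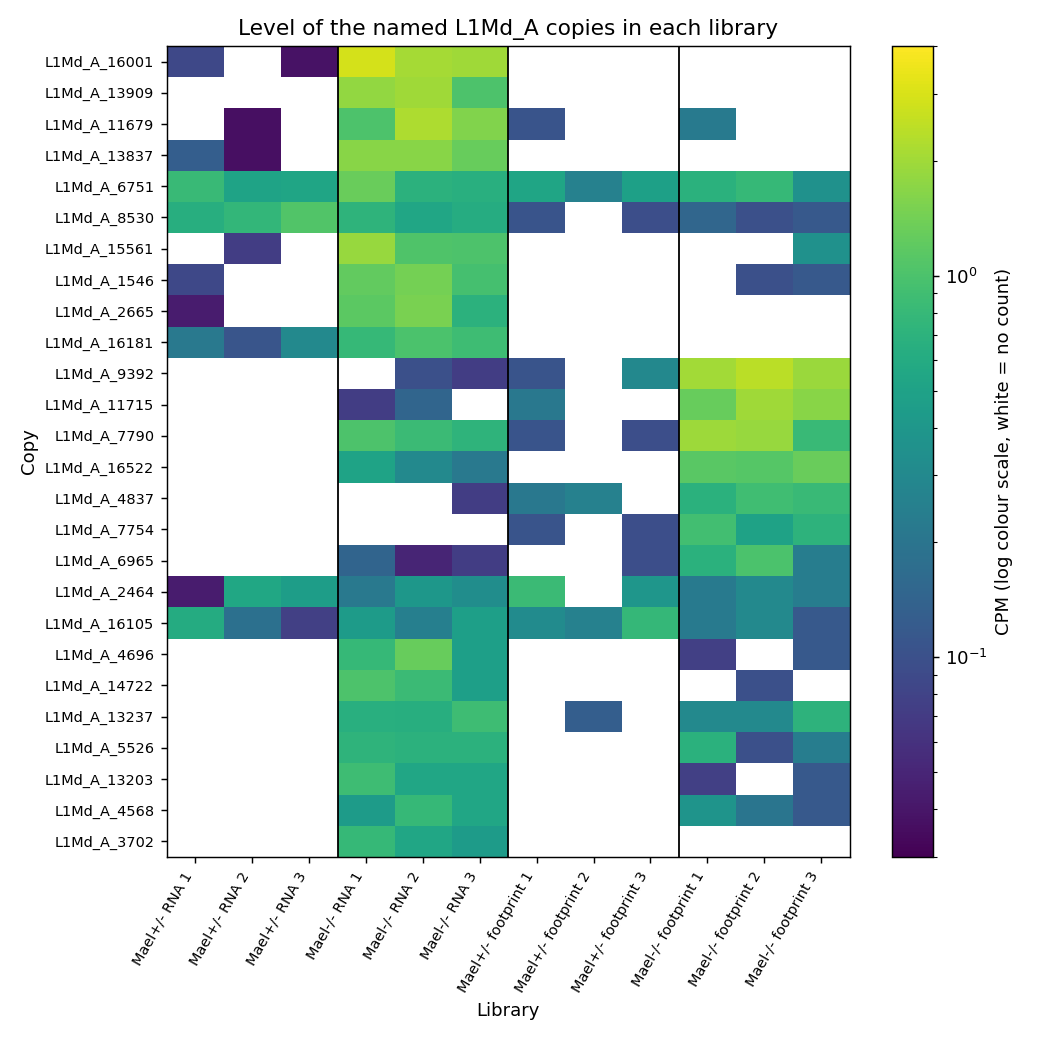
Level in CPM (log colour scale, white where no count fell) of the 26 named L1Md_A copies (rows) in the 12 libraries (columns, in blocks of Mael+/- RNA, Mael-/- RNA, Mael+/- footprints and Mael-/- footprints). The highest copies in RNA are nearly empty in footprints, L1Md_A_9392 and L1Md_A_11715 show the reverse, and copies such as L1Md_A_6751 and L1Md_A_16105 are present in all 4 blocks.

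The other copies named for a large rise in RNA had no RNA count in Mael+/- testes and fell into those with and those without footprints. L1Md_A_13237 had 9, 13 and 24 RNA counts and 4, 3 and 6 footprint counts in Mael-/-. L1Md_A_5526 had 10, 14 and 19 RNA counts and 9, 1 and 2 footprint counts. L1Md_A_4568 had 6, 16 and 15 RNA counts and 5, 2 and 1 footprint counts. Footprint levels of these 3 copies were 0.548, 0.541 and 0.419 times their RNA levels, where the sums gave 0.341 to 0.474. L1Md_A_4696, L1Md_A_14722 and L1Md_A_13203 had 50, 44 and 38 RNA counts over the Mael-/- libraries and 1 or 2 footprint counts. L1Md_A_3702 had 11, 11 and 12 RNA counts and no footprint count in any library, its footprint level being at least 5.85-fold lower than its RNA level when 3 footprint counts were assumed. The 7 copies were at least 14.2-fold to 20.9-fold higher in Mael-/- RNA, with adjusted p from 0.0042 to 0.01 by edgeR. Without Mael-/- library 2 the calls of L1Md_A_4696, L1Md_A_14722, L1Md_A_13203, L1Md_A_4568 and L1Md_A_3702 were lost (adjusted p from 0.055 to 0.128), and without Mael-/- library 1 those of the same copies except L1Md_A_4696 (adjusted p from 0.0515 to 0.109).

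Whether ribosome occupancy of L1Md_A changed beyond its RNA was asked for the sum and for single copies. The footprint level of the sum divided by its RNA level was 0.624, 0.834 and 0.536 in the Mael+/- extracts and 0.341, 0.471 and 0.474 in the Mael-/- extracts. The genotypes did not overlap, and the mean log2 ratio was -0.61 ± 0.32 in Mael+/- and -1.24 ± 0.27 in Mael-/- (SD, n = 3). The difference of -0.63 gave p = 0.1 in a two-sided exact permutation test, the smallest that 3 against 3 extracts allow. As an interaction in edgeR the change was -0.64 (SE 0.29, 95% interval -1.27 to -0.01), with an unadjusted p of 0.047 and an adjusted p of 1.0 over all genes and sums. This fit treated all libraries as independent, although RNA and footprints came from the same extracts. With the extract as block the change was -0.62, with an unadjusted p of 0.000933 by edgeR, and stayed uncalled after adjustment. In the fit without block, the change was -0.24 (SE 0.29) for L1Md_T and 0.17 (SE 0.37) for L1Md_Gf. The differences between subfamilies were not tested. Of the 13 L1Md_A copies tested singly, 0 were called by edgeR and 0 had an unadjusted p under 0.05, where 0.00352% of all genes and repeat copies were called. DESeq2 called 0 and gave 4 of the 13 an unadjusted p under 0.05. Several of these edgeR tests could not have called a change, because groups without counts left the estimate without bounds. For L1Md_A_16001, with no footprint count, the 95% interval was -15687 to 15676, and for L1Md_A_16522 it was -6707 to 6711. The absence of calls therefore does not show that single copies were unchanged.

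Beside the other young subfamilies, L1Md_A had the middle level. In Mael-/- RNA the sums were 236 ± 58.5 CPM for L1Md_A, 433 ± 112 for L1Md_T and 28.2 ± 8.84 for L1Md_Gf, and in Mael-/- footprints 98.4 ± 11.7, 212 ± 49.0 and 17.7 ± 2.62 (SD, n = 3). They had 16802, 23639 and 1077 copies, respectively. L1Md_T rose 6.25-fold in RNA and 5.31-fold in footprints, and L1Md_Gf 5.5-fold and 6.20-fold, with adjusted p of 0.00084 and 0.000104 for L1Md_T and 0.00293 and 0.000686 for L1Md_Gf by edgeR. The 95% intervals of the log2 fold change overlapped between the 3 subfamilies in RNA (2.41 to 3.38 for L1Md_A, 2.17 to 3.12 for L1Md_T, 1.92 to 3.00 for L1Md_Gf) and in footprints (1.91 to 2.6, 2.04 to 2.77 and 2.12 to 3.15). The older L1Md_F, L1Md_F2 and L1Md_F3 gave RNA ratios of 1.67, 1.49 and 1.63, with adjusted p from 0.527 to 0.712 by edgeR. Their footprint ratios were 1.51, 1.45 and 1.49, with adjusted p from 0.242 to 0.679. None was called, but their 95% intervals of the log2 fold change lay above 0 in both assays. In RNA these were 0.31 to 1.17, 0.17 to 0.99 and 0.25 to 1.17.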

How the data were processed

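The data were RNA and ribosome footprint libraries from 3 Mael+/- and 3 Mael-/- testis extracts. The authors clipped footprint reads, removed those of ribosomal DNA, aligned reads to mm10 with STAR and deposited raw counts from featureCounts, without normalization, over whole mRNAs for RNA and coding sequence for footprints. For repeats, the study's methods describe STAR with many alignments allowed per read and reassignment of ambiguous reads with Telescope, but for its immunoprecipitation libraries. Whether this was done here, the strand setting and any collapse of duplicates are not given in the sources used here. The deposited result tables hold the authors' own DESeq2 fold changes and p-values and were not used. No 2 libraries held identical counts.

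CPM are counts divided by the gene total times the TMM factor of the assay. Genes with single repeat copies, and genes with subfamily sums, were tested by quasi-likelihood in edgeR 4.0.16 (R 4.3.3), after its default filter (minimum count 10, total 15), with Benjamini-Hochberg adjustment over all rows and calls at 0.05. DESeq2 1.42.0, median-of-ratios factors, other filters, a replicate block and leaving out each library were alternatives. The scripts were tested on simulated data. Ratios of counts have exact conditional 95% intervals (SciPy), which, like floors of 3 counts, cover counting error only. Thinned numbers of copies are exact expectations. Named copies were the 10 highest per assay, and called copies, limited to the 10 with the largest fold, at least 5 mean counts and no overlap. The copies, lists and tests were chosen with earlier results of these data known. Planned splits by copy length, position in genes and intact reading frames could not be made, because the table gives no coordinates. The replicate numbers come from the labels, which call the samples biological replicates. RNA and footprints of a number came from aliquots of the same extract, and their deviations from the group mean correlated at 0.64 to 0.78 in Mael+/- and 0.24 to 0.25 in Mael-/- over 12265 genes.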

Additional observations from a re-analysis of the deposited data

How the results depend on the processing

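The sums of L1Md_A kept their direction and their call in RNA and footprints under median-of-ratios factors, DESeq2, no filter, a replicate block and each left-out library, and the change of footprints beyond RNA stayed uncalled under the same settings. The number of copies called in RNA, 33, was 121 with no filter, with 3579 copies tested, and 8 with a mean of at least 10 counts, with 13 tested. Leaving out 1 library, it ranged from 18 to 62. In footprints the 3 calls became 1 with a mean of at least 10 counts and 1 when the rows were genes and L1Md_A copies only, and ranged from 0 to 1 with 1 library left out. Calls of single footprint copies are thus not stable at this depth. Across genotypes, samples of the same number did not all deviate together (correlations of 0.002 to 0.27), so they share only a number. With the number as a replicate block, 33 and 2 copies were called and the sums changed by 2.89 and 2.26. With the extract as a replicate block, the change of footprints beyond RNA was -0.62, with an unadjusted p of 0.000933 by edgeR, and stayed uncalled after adjustment. This block called 0 L1Md_A copies, as in the main fit. Of all genes and repeat copies it called 3, against 1 in the main fit. Of 7 alternatives chosen after seeing the data, the share of footprint copies without overlap moved to 42.5% at a minimum of 5 counts. The share of Mael-/- footprint counts on copies without RNA moved from 26.8% to 17.7% among copies with at least 5 footprint counts. Under DESeq2, the block or a left-out library, single named copies kept their direction in all 176 comparisons. A call was lost in 33 of them, most often for the 3 footprint copies and L1Md_A_16181. The 176 include those of L1Md_A_6751, L1Md_A_8530 and L1Md_A_16105, which had no call to lose. Alternatives by copy length, by place in genes and for the longest copies were not run, since the table gives no coordinates. Depth limits what single copies can show: of 16802, 364 had 10 RNA counts and 44 had 10 footprint counts.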
